A study of Mus musculus with 59 samples.

Results

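To describe what an expanded *Atxn1* allele does to gene expression in the cerebellum, RNA-seq libraries from the cerebellum of 4 *Atxn1* 154Q/2Q mice were compared with those of 4 WT mice, 8 libraries of the 59 in the series, chosen by labeled genotype and region. *Atxn1* 154Q/2Q mice are a knock-in model of spinocerebellar ataxia type 1 (SCA1): 1 *Atxn1* allele carries an expanded CAG repeat, labeled 154Q, the other is an unexpanded 2Q allele, and the mutant protein is made under the gene's own promoter in every cell that uses it. All mice were 10 weeks old and of the C57BL/6 strain by their labels, C57BL/6J by the study's methods. Each library came from the cerebellum of 1 mouse, so the mouse is the unit of replication. The spread between mice was estimated with 4 more cerebellum libraries, labeled 154Q-AXH. In those mice the expanded allele also carries the V591A and S602D substitutions. They enter the SE and p values of the main fit and not its contrast. Values of single libraries are given in the order of mouse numbers, first WT-70 and WT-77, then WT-220 and WT-221 for the controls, and 154Q-69 and 154Q-71, then 154Q-75 and 154Q-76 for the mutants.

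ATXN1 is a nuclear protein that acts with transcriptional repressors, above all Capicua (CIC), and the expansion makes it toxic to neurons. The cerebellar cortex is built around Purkinje cells, large inhibitory neurons that receive granule cell input through parallel fibers and answer it in part through phospholipase C and the IP3 receptor, which release calcium from internal stores. Purkinje cells are the neurons best known to suffer in SCA1, and Bergmann glia, molecular layer interneurons, unipolar brush cells, and Golgi cells share their layers.

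The 8 libraries held 64.4 to 98.5 M read pairs counted on genes, which was 75.3% to 77.7% of all pairs, and the 10 most counted genes took 5.17% to 5.82% of the counts. Values below are CPM, read counts scaled to a common library size by TMM, which compare a gene between libraries and not one gene with another. Differentially expressed genes (DEGs) are those with an adjusted p (Benjamini-Hochberg) under 0.05 by edgeR's quasi-likelihood test, run on 20874 genes, and "raised" and "lowered" refer to *Atxn1* 154Q/2Q relative to WT mice. *Atxn1* itself read 44.3, 44.3, 59.6, and 51.6 CPM in WT and 58.0, 47.0, 51.6, and 47.2 CPM in *Atxn1* 154Q/2Q libraries (log2 fold change 0.03, SE 0.093, edgeR adjusted p = 0.929). The groups overlapped, and since the counts do not tell the alleles apart, this level does not check the genotype.

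The WT libraries fell in 2 pairs. The 4 mutant mice carry numbers below 100, as do WT-70 and WT-77, while WT-220 and WT-221 belong to a higher number series. Counts of WT-220 and WT-221 differed by a chi-square of 7.4 per degree of freedom, those of WT-70 and WT-77 by 21.9, and WT libraries of different series by 41.5 to 56.9. What the series mark is not given in the sources used here. Results are therefore also given against WT-70 and WT-77 alone, the WT mice of the lower series, where this ends a call or moves a count. All 154Q-AXH mice belong to the higher series. With the series as a covariate its term is thus estimated within WT only, and the contrast rests on WT-70 and WT-77 again. These 2 fits share 1 estimate with different spreads and are not separate checks. In addition, *Xist* was high in 154Q-75 (log2 CPM 10.18) and at most 1.43 in the other 7 libraries, and with its level as a covariate 1040 genes were called, 938 of them among the DEGs below.

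There were 1089 DEGs, 438 raised and 651 lowered, or 5.22% of the genes tested (2.1% raised and 3.12% lowered), and most changed little. With only the 8 WT and mutant libraries fitted 619 genes were called, 612 of them DEGs. The median DEG changed 1.26-fold, with a median absolute log2 fold change of 0.30 among raised and 0.36 among lowered genes, against 0.10 over all genes tested. Of the DEGs, 252 passed 1.5-fold (86 raised and 166 lowered), and 102 passed 2-fold (34 raised and 68 lowered). The sizes followed expression level. With the genes split by mean CPM in 5 bins of equal size, 0.862% of the lowest bin were DEGs, with a median absolute log2 fold change of 1.48, and 8.72% of the highest bin were DEGs, with a median of 0.24. In 1018 of the DEGs the 4 *Atxn1* 154Q/2Q libraries all lay outside the WT range (93.5%), against 10.1% of all genes tested (4.76% above and 5.38% below WT). The same libraries chose the DEGs, so this share describes them and is not a separate test. Protein-coding genes made up 989 of the DEGs, 6.31% of those tested, and 34 of 1049 long intergenic noncoding RNAs were DEGs, 3.24%.

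**Figure D1:**
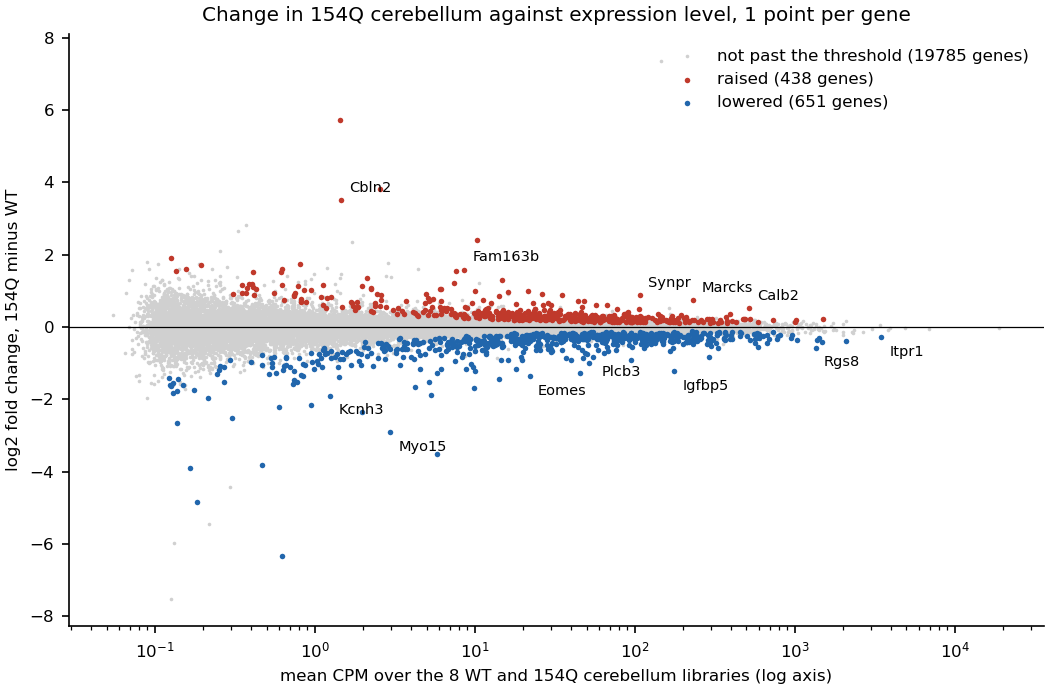
Log2 fold change (*Atxn1* 154Q/2Q minus WT) of each gene tested against its mean CPM over the 8 cerebellum libraries on a log axis, with the 438 raised genes in red and the 651 lowered genes in blue. Highly expressed DEGs lie close to 0, and folds over 2 are found mostly among genes of low expression.

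Markers of the Purkinje cell were lowered more often than those of any other cell type examined. All 29 genes of the list passed the filter on low counts, and 28 were lower in *Atxn1* 154Q/2Q libraries. Of the list 21 were lowered DEGs (72.4% against 3.12% of all genes), and none was raised. The median log2 fold change was -0.329 against a median of 0.001 over all genes tested. Purkinje transcripts summed to 16000 to 17600 CPM in WT and 12700 to 13600 CPM in *Atxn1* 154Q/2Q libraries, with no overlap. In whole tissue, fewer Purkinje cells and less of each transcript per Purkinje cell cannot be told apart. Of the 29 genes, 16 also stand in another list described here, so the counts of those lists are not separate.

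*Calb1*, the calcium buffer calbindin and a standard Purkinje marker, read 1600, 1530, 1510, and 1600 CPM in WT and 1230, 1230, 1200, and 1190 CPM in *Atxn1* 154Q/2Q libraries (log2 fold change -0.36, SE 0.034, edgeR adjusted p = 2.06e-05). *Rgs8*, a regulator of G protein signaling, read 1620, 1520, 1610, and 1710 CPM against 1140, 1060, 1100, and 1050 CPM (-0.57, SE 0.044, adjusted p = 3.86e-06). Each group was tight and the gap between the groups was wider than the range of either. *Arhgef33*, a guanine nucleotide exchange factor, read 252, 230, 209.3, and 233 CPM against 177, 166, 170, and 158 CPM (-0.46, SE 0.053, adjusted p = 0.000109). It was lower in each mutant than in each WT library.

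*Pcp2*, a Purkinje marker and a modulator of G protein signaling, did not pass the test. It read 155, 90.3, 79.4, and 74.9 CPM in WT and 84.3, 63.7, 64.3, and 67.1 CPM in *Atxn1* 154Q/2Q libraries (log2 fold change -0.51, SE 0.188, edgeR adjusted p = 0.147). WT-70 stood far above the other WT libraries and 154Q-69 lay inside the WT range. Only 32.6% of the read pairs that the stranded counts give to *Pcp2* were kept in the unstranded counts used here, which leave out pairs on exons shared with a gene on the other strand. The corresponding share was 48.0% for *Homer3*, and 67.5% for *Chn2*, so the levels of these genes are partial.

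The lowered Purkinje genes included much of the pathway that releases calcium from stores. In the list of calcium store signaling all 27 genes were tested, and 14 were lowered (51.9% against 3.12% of all genes). None was raised, and the median log2 fold change was -0.290. The G protein at the top of the pathway did not pass the test. *Gnaq*, the Gq alpha subunit, read 251, 226, 259, and 273 CPM in WT and 240, 236, 238, and 221.3 CPM in *Atxn1* 154Q/2Q libraries (-0.11, SE 0.050, edgeR adjusted p = 0.278). The groups overlapped.

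Next in the pathway, *Plcb3*, which encodes the phospholipase C beta 3 that splits the membrane lipid PIP2, read 73.5, 66.6, 67.3, and 75.2 CPM in WT and 39.6, 42.0, 39.0, and 38.7 CPM in *Atxn1* 154Q/2Q libraries (log2 fold change -0.83, SE 0.050, edgeR adjusted p = 4.58e-07). It changed the most of the 27 genes. *Itpr1*, the IP3 receptor through which the store empties, read 3960, 3530, 3670, and 4190 CPM against 3160, 3140, 3380, and 2870 CPM (-0.29, SE 0.057, adjusted p = 0.00765; 0.138 against WT-70 and WT-77 alone). Of the enzymes that remove IP3, *Itpka* fell from 59.99 ± 9.70 to 42.2 ± 1.53 CPM (SD, n = 4 each; edgeR adjusted p = 0.00549) and *Inpp5j* from 145 ± 9.98 to 107 ± 3.70 CPM (edgeR adjusted p = 7.63e-05). These genes were lower in all 4 mutant libraries than in any WT library.

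*Homer3*, a postsynaptic scaffold that binds the IP3 receptor, read 217.7, 166, 157, and 161 CPM in WT and 141, 120, 120, and 128 CPM in *Atxn1* 154Q/2Q libraries (-0.47, SE 0.092, edgeR adjusted p = 0.00761), with WT-70 high. The store refilling pump *Atp2a3* (SERCA3) fell from 278 ± 12.6 to 213 ± 6.72 CPM (SD, n = 4 each; edgeR adjusted p = 9.25e-05). All genes named downstream of *Gnaq* were thus lowered, by log2 fold changes from -0.29 to -0.83.

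**Figure D2:**
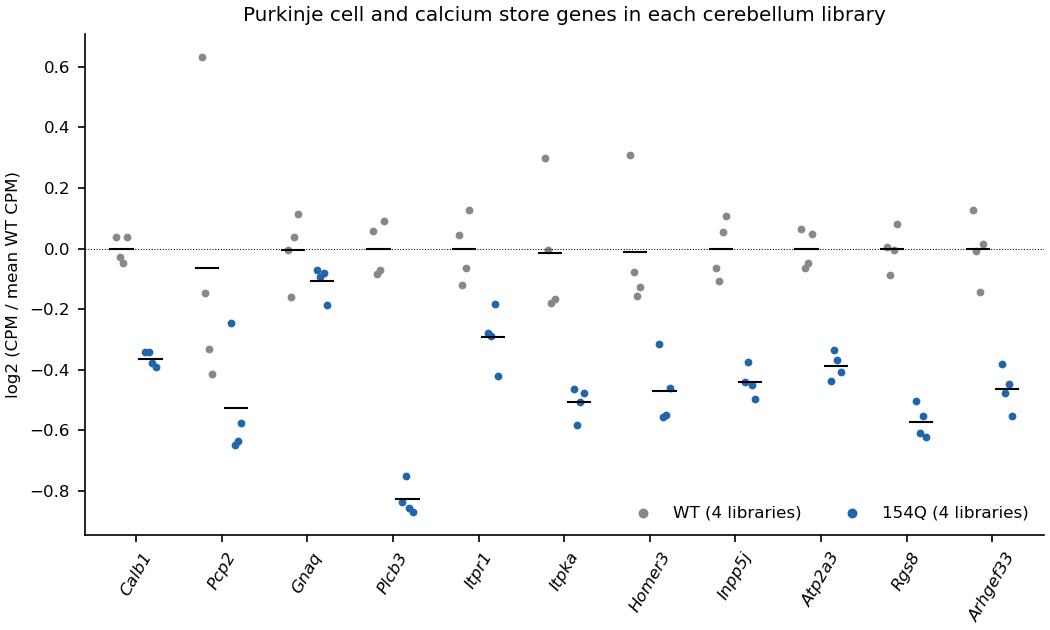
Log2 ratio of the CPM of each library to the mean WT CPM, for Purkinje cell genes and genes of calcium store signaling (gray, 4 WT libraries; blue, 4 *Atxn1* 154Q/2Q libraries; bars, means). The groups overlap for *Pcp2* and *Gnaq* and lie apart for the other genes shown.

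Granule cells, the input neurons that make up most cells of the cerebellum, changed in fewer genes and in both directions. Of 21 markers 6 were lowered and 2 raised, 38.1% of the list against 5.22% of all genes, with a median log2 fold change of -0.110. The raised genes were *Calb2*, the calcium buffer calretinin, which read 429, 444, 418, and 411 CPM in WT and 620, 625, 553, and 630 CPM in *Atxn1* 154Q/2Q libraries (0.51, SE 0.046, edgeR adjusted p = 1.52e-05), and *Cadps2*, a factor for dense core vesicle release (0.27, SE 0.060, edgeR adjusted p = 0.0142). The lowered ones included *Chn2*, a Rac GTPase activating protein (-0.35, SE 0.041, edgeR adjusted p = 0.000154), *Cbln1*, the secreted organizer of parallel fiber synapses (-0.24, SE 0.052, adjusted p = 0.0132), and the transcription factors *Neurod2* and *Neurod1* (-0.22 and -0.21). *Gabra6*, the GABA receptor subunit typical of granule cells, read 935, 920, 1120, and 1030 CPM against 960, 876, 947, and 939 CPM (-0.11, SE 0.057, edgeR adjusted p = 0.358), and its groups overlapped. Against WT-70 and WT-77 alone 2 granule cell genes were raised and 1 lowered (median -0.057), *Cbln1*, *Neurod2*, and *Neurod1* no longer passed (edgeR adjusted p = 0.0771, 0.167, and 0.175), and *Calb2*, *Cadps2*, and *Chn2* did. Lowered calls numbered 2 with the series as a covariate, 2 with the 8 libraries fitted alone, and 1 without 154Q-71 and 154Q-75.

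Of 6 markers of unipolar brush and Golgi cells, 2 were lowered (33.3% against 5.22% DEGs among all genes), among them *Eomes*. *Eomes*, the transcription factor of unipolar brush cells, read 24.1, 23.9, 36.6, and 42.5 CPM in WT and 9.72, 14.9, 11.95, and 12.99 CPM in *Atxn1* 154Q/2Q libraries (-1.36, SE 0.200, edgeR adjusted p = 0.000942). The WT libraries split in 2 levels for *Eomes*, and the change was -0.96 (edgeR adjusted p = 0.00796) against WT-70 and WT-77 alone. Among 20 markers of Bergmann glia and astrocytes, 3 were lowered and none raised (median -0.115), 15.0% of the list against 5.22% of all genes. These were *Gdf10*, a growth factor of Bergmann glia (-0.42, SE 0.063, edgeR adjusted p = 0.00115), *A2m* (-0.32, SE 0.051, adjusted p = 0.0017), and *Gja1*, the gap junction protein connexin 43 (-0.24, SE 0.056, adjusted p = 0.0236). *Gja1* did not pass against WT-70 and WT-77 alone (edgeR adjusted p = 0.339).

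No marker of the remaining cell types passed the test except 1 of blood. This covered 13 genes of molecular layer interneurons, 22 of the oligodendrocyte lineage, 16 of microglia, 15 of endothelial cells and pericytes, 8 of meningeal fibroblasts, 8 of ependymal cells, and 18 of the choroid plexus, with list medians from -0.201 (ependymal cells) to 0.061 (microglia). These medians depended on the WT mice. With WT-70 and WT-77 alone as controls that of microglia was -0.060 (14 of 16 genes lower), of ependymal cells -0.663, of meningeal fibroblasts -0.206, and of the oligodendrocyte lineage -0.190, with no gene called, and with the series as a covariate 3 ependymal and 3 oligodendrocyte genes were lowered. All 5 blood genes were lower, with a median log2 fold change of -0.479, and they summed to 131, 168, 122, and 138 CPM in WT and 85.9, 120, 106, and 98.5 CPM in *Atxn1* 154Q/2Q libraries, with no overlap. With the series as a covariate 4 of the 5 were lowered, and against WT-70 and WT-77 alone 3. The part of blood in the other results was not tested. The blood gene past the test was *Hbb-bs*, an adult beta globin chain whose reads can be shared with its near-identical neighbor (-0.55, SE 0.130, edgeR adjusted p = 0.0236).

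**Figure D3:**
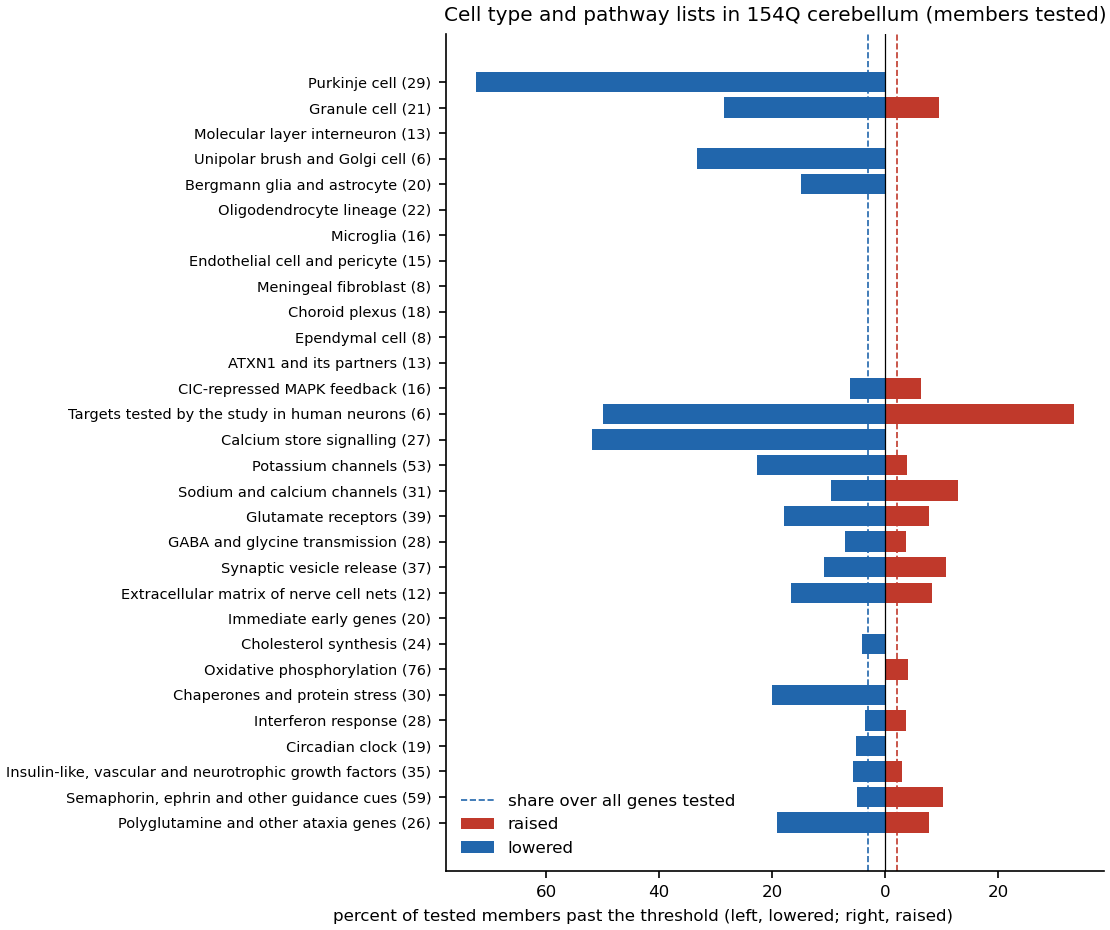
Share of the tested members of cell type and pathway lists (number tested in parentheses) that was lowered (blue, to the left) or raised (red, to the right) in *Atxn1* 154Q/2Q cerebellum, with dashed lines at the 3.12% and 2.1% found over all genes tested. The lists of blood, brainstem nucleus, and sex-linked genes are not shown. The Purkinje cell list reaches 72.4% and the calcium store list 51.9%, all lowered.

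Choroid plexus transcripts differed between libraries, and high and low levels were found in both genotypes. *Ttr*, which encodes transthyretin and is the most abundant transcript of the choroid plexus, read 1350, 2820, 48.8, and 12.2 CPM in WT and 12.99, 1970, 12.6, and 2600 CPM in *Atxn1* 154Q/2Q libraries, so that WT-70, WT-77, 154Q-71, and 154Q-76 were high and the other 4 libraries low. All 18 choroid plexus markers passed the filter, they summed to 246 to 5240 CPM in WT and 234 to 4620 CPM in *Atxn1* 154Q/2Q libraries, and none was a DEG. Against WT-70 and WT-77 alone, which both had high *Ttr*, all 18 were lower (median -0.911), and none was called. Each genotype thus had 2 libraries of either kind, and the split at a log2 CPM of 8 was chosen after the values were seen. Among the high-*Ttr* libraries all 438 raised and 650 of the 651 lowered DEGs differed in the direction of the whole comparison, with median log2 differences of 0.30 and -0.32. Among the low-*Ttr* libraries all 438 and all 651 did, with medians of 0.30 and -0.38. These libraries chose the DEGs, so the shares describe evenness and are not a separate test.

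With the high or low *Ttr* level as a term of the model, 1324 genes were called by genotype, and 1083 of the 1089 DEGs (99.4%) were among them, none with the opposite sign. The *Ttr* term itself was past the threshold for 375 genes (1.8% of those tested), 337 of them higher in the high-*Ttr* libraries, and 4 genes of the DEGs (0.367%) were among the 375. *Ttr* as a continuous covariate gave 1331 DEGs, the mean of the choroid plexus list as a covariate 1377, and leaving out the 18 genes before scaling 1088. The Purkinje list had 21 to 22 lowered genes in these fits and the calcium store list 14 to 16.

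**Figure D4:**
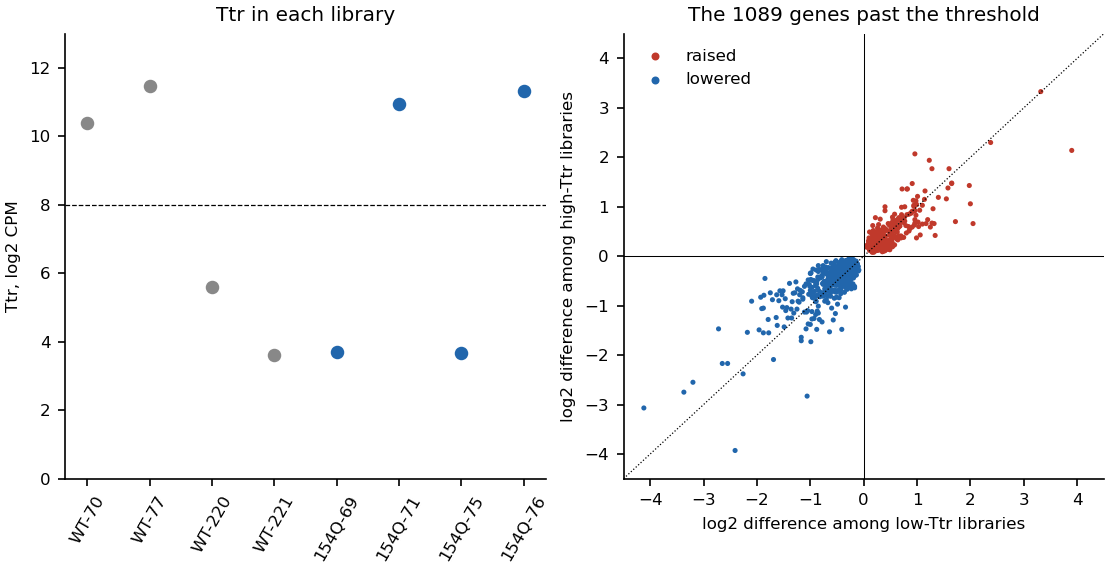
Left, log2 CPM of *Ttr* in each cerebellum library (gray, WT; blue, *Atxn1* 154Q/2Q), with the dashed line at the split of 8. Right, log2 difference (*Atxn1* 154Q/2Q minus WT) of the 1089 DEGs among the 4 high-*Ttr* libraries against that among the 4 low-*Ttr* libraries, with points near the diagonal changed alike in both.

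The number series of the mice moved more calls than *Ttr* did. WT-70 and WT-77 were also the WT mice with high *Ttr*, so mouse number series and *Ttr* cannot be told apart within WT. Against WT-70 and WT-77 alone all 438 raised and 651 lowered DEGs had the same direction, with medians of 0.31 and -0.32. These libraries were among those that chose the DEGs, so this describes evenness and is not a separate test. In the fit of the 4 mutant and these 2 WT libraries 372 genes were called, 324 of them DEGs. Of 108 DEGs named in the text 59 passed in it. With all libraries fitted and the series as a covariate 959 genes were called, and 637 of the 1089 DEGs were among them, none with the opposite sign. That contrast rests on WT-70 and WT-77 too, so it is no separate check. The Purkinje list had 20 lowered genes with the covariate and 17 against WT-70 and WT-77 alone (medians -0.367 and -0.372), and the calcium store list 14 and 11 (medians -0.222 and -0.227), with 2 of its genes raised under the covariate.

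In addition, 154Q-71 and 154Q-75 shared transcripts that were lower in the other libraries. There were 23 genes at 1 CPM or more in both and at least 2-fold above each of the other 6 libraries, and 4 of them were raised DEGs (0.913% of the raised DEGs): *Camkv*, *Cbln2*, *Nrgn*, and *Shox2*. *Shox2*, a transcription factor, read 0.0934, 0.0346, 0.0782, and 0.0137 CPM in WT and 0.0762, 7.33, 3.74, and 0.0699 CPM in *Atxn1* 154Q/2Q libraries (edgeR adjusted p = 0.0406). *Cbln2*, which like *Cbln1* is a secreted synapse organizer, read 0.373, 0.150, 0.201, and 0.260 CPM against 0.317, 4.94, 5.04, and 0.315 CPM (edgeR adjusted p = 0.0439), and *Nrgn*, the calmodulin-binding protein neurogranin, 4.19, 3.42, 2.77, and 2.94 CPM against 4.39, 32.6, 29.2, and 3.18 CPM (edgeR adjusted p = 0.0423). In 154Q-69 and 154Q-76 all 3 genes were at the WT level, and the large folds rest on the other pair. *Tcf7l2*, known as a marker of thalamus and midbrain, read 6.31, 27.7, 19.2, and 6.08 CPM in the *Atxn1* 154Q/2Q libraries and 6.08 to 6.99 CPM in WT, and was no DEG (edgeR adjusted p = 0.0927). With both libraries left out 484 genes were called, 459 of them DEGs, none with the opposite sign, with 16 Purkinje and 13 calcium store list genes lowered. These 4 genes and *Tcf7l2* were named after their values were seen.

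The WT libraries differed in a further way. *Slc6a2*, the noradrenaline transporter of the locus coeruleus in the pons, read 1.70, 0.958, 0.190, and 0.698 CPM in WT and 0.0508, 0.0807, 0.0504, and 0.0466 CPM in *Atxn1* 154Q/2Q libraries (-3.82, SE 0.674, edgeR adjusted p = 0.00348). *Dbh*, which makes noradrenaline in the same cells and was under the filter, read 0.778, 0.600, 0.0670, and 0.383 CPM against 0.0381, 0.0403, 0.0252, and 0.0349 CPM. Both were highest in WT-70, and both were named after their values were seen. Of the 12 brainstem nucleus markers 10 were under the filter and neither of the other genes was a DEG. The part of these transcripts in the DEGs was not tested beyond the fits given.

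Among DEGs at a mean of 1 CPM or more whose groups lay apart, provisional gene names left out, the 12 raised genes with the lowest p values included *Synpr*, *Marcks*, *Slc44a5*, *Fxyd6*, *Minar1*, *Calb2*, *Rprm*, *Fam163b*, *Robo1*, *Necab1*, and *Pde3a*. *Synpr*, the synaptic vesicle protein synaptoporin, read 73.6, 74.9, 76.6, and 79.6 CPM in WT and 142, 135, 147, and 136 CPM in *Atxn1* 154Q/2Q libraries (0.88, SE 0.043, edgeR adjusted p = 1.15e-07). *Marcks*, a protein kinase C substrate at the membrane, read 182, 176, 164, and 170 CPM against 292, 284, 280, and 304 CPM (0.74, SE 0.041, adjusted p = 1.94e-07). For both genes the lowest mutant library was more than 1.5-fold above the highest WT library. *Robo1*, a receptor for Slit guidance cues, read 20.2, 20.8, 23.5, and 24.2 CPM against 35.3, 34.5, 37.9, and 33.4 CPM (0.67, SE 0.063, adjusted p = 2.02e-05). The choline transporter-like gene *Slc44a5* rose 2.00-fold (SE 0.085 on the log2 scale, edgeR adjusted p = 1.01e-05), and *Pde3a*, a phosphodiesterase of cyclic nucleotides, rose 1.63-fold (edgeR adjusted p = 5.86e-05).

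The largest raised folds under the same rule were those of *Fam163b* (2.99-fold, edgeR adjusted p = 2.02e-05), *Mndal* (2.92-fold), *Rprm* (2.57-fold), *Kcnb2* (2.46-fold, edgeR adjusted p = 7.36e-05), and *Ifi203* (2.32-fold). *Kcnb2*, the potassium channel Kv2.2, read 7.02, 9.02, 9.58, and 8.50 CPM in WT and 22.1, 16.8, 25.7, and 19.7 CPM in *Atxn1* 154Q/2Q libraries. *Mndal* and *Ifi203* lie in a cluster of similar interferon-inducible genes on chromosome 1 whose reads the counting can split between copies, so their levels are uncertain.

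Under the same rule the 12 lowered genes with the lowest p values included *Stap2*, *Plcb3*, *Ccdc63*, *Igfbp5*, *Myo15*, *Grm4*, *Cep76*, *Fam107b*, *Rgs8*, *Stk17b*, and *Il20rb*. *Stap2*, a signaling adaptor, read 23.6, 24.3, 26.7, and 25.6 CPM in WT and 11.1, 11.5, 10.9, and 11.3 CPM in *Atxn1* 154Q/2Q libraries (-1.16, SE 0.065, edgeR adjusted p = 1.94e-07). *Igfbp5*, a secreted protein that binds insulin-like growth factors, read 247, 206.6, 274, and 263 CPM against 95.5, 114, 115, and 101 CPM (-1.22, SE 0.079, adjusted p = 7.75e-07). In neither of these genes did the groups come near each other. *Grm4*, the mGluR4 receptor of parallel fiber terminals, fell from 371 ± 24.3 to 208 ± 10.6 CPM (SD, n = 4 each; log2 fold change -0.84, SE 0.057, edgeR adjusted p = 1.11e-06). The largest lowered folds were those of *Myo15*, an unconventional myosin, which fell to 0.133-fold of WT (5.21 ± 1.21 to 0.693 ± 0.176 CPM; SD, n = 4 each; edgeR adjusted p = 1.11e-06), *Kcnh3* (0.268-fold), *Gcnt1* (0.309-fold), *Car9* (0.317-fold), and *Ccdc63* (0.348-fold).

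Ion channels moved in both directions. DEGs made up 26.4% of the potassium channel list and 22.6% of the sodium and calcium channel list, against 5.22% of all genes. Of 53 potassium channel genes 12 were lowered and 2 raised (median -0.057), with the raised *Kcnb2* and *Kcnk2* (0.47, SE 0.079, edgeR adjusted p = 0.00262) set against lowered genes such as *Kcnh3* and *Kcnip4* (-1.90 and -0.42). *Kcnh3*, a channel that works near rest, read 1.54, 2.44, 2.42, and 1.51 CPM in WT and 0.406, 0.676, 0.403, and 0.629 CPM in *Atxn1* 154Q/2Q libraries (edgeR adjusted p = 0.000214). Its level was low, with both group means in the range of bin 2 of the 5 expression bins, counted from the lowest (0.451 to 3.23 CPM). Of 31 sodium and calcium channel genes 4 were raised and 3 lowered. The raised ones included the calcium channel subunits *Cacna2d1* (0.40, SE 0.078, edgeR adjusted p = 0.00683) and *Cacna1b* (0.30, SE 0.061, edgeR adjusted p = 0.00888), and the lowered ones *Scn4b*, the sodium channel beta 4 subunit (-0.36, SE 0.059, adjusted p = 0.00218), *Cacnb2* (-0.29), and *Cacna2d2* (-0.24). Without 154Q-71 and 154Q-75 none of the 31 was raised and 2 were lowered. In the fit against WT-70 and WT-77 alone 7 potassium channel genes were lowered and 3 raised, with *Kcnk2* at an edgeR adjusted p of 0.0616, and 1 sodium or calcium channel gene was lowered and 4 raised, with *Cacnb2* and *Cacna2d2* at 0.197 and 0.189.

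At synapses, 7 of 39 glutamate receptor genes were lowered and 3 raised (median -0.005), and the lowered ones included *Grm4*, *Shisa6*, and *Grik4* (-0.84, -0.37, and -0.33). Of 28 genes of GABA and glycine transmission 2 were lowered and 1 raised, and the lowered pair were both subunits of the GABA-B receptor, *Gabbr2* (266 ± 24.3 to 205 ± 15.6 CPM; SD, n = 4 each; edgeR adjusted p = 0.00249) and *Gabbr1* (727 ± 41.9 to 621 ± 7.22 CPM; edgeR adjusted p = 0.00262). The raised *Glra2*, a glycine receptor subunit, read 4.80, 8.04, 7.66, and 5.18 CPM in the *Atxn1* 154Q/2Q libraries, with 154Q-71 and 154Q-75 high, and 3.63 to 4.15 CPM in WT (edgeR adjusted p = 0.0165). Of 37 genes of vesicle release 4 were raised, among them *Synpr*, *Rab3b* (0.37), and *Cplx1* (0.22), and 4 lowered, among them *Doc2b*, a calcium sensor (-0.42, SE 0.037, edgeR adjusted p = 1.50e-05), and the synaptotagmins *Syt7* and *Syt12* (-0.32 and -0.23). Of 59 guidance genes 6 were raised, among them *Robo1*, the ephrin receptors *Epha7* and *Epha5* (0.35 each), and *Sema3a* (0.29), and 3 lowered, among them *Sema7a* (-0.42, SE 0.055, edgeR adjusted p = 0.000386) and *Plxna3* (-0.31). DEGs made up 25.6% of the glutamate receptor and 10.7% of the GABA and glycine genes. The shares were 21.6% for vesicle and 15.3% for guidance genes, against 5.22% of all genes. Many of these synaptic calls did not hold against WT-70 and WT-77 alone. There 1 glutamate receptor gene was raised and 3 lowered, none of the 28 GABA and glycine genes was called (*Gabbr2*, *Gabbr1*, and *Glra2* at edgeR adjusted p = 0.092, 0.114, and 0.168), and 1 vesicle gene was raised and 2 lowered. *Shisa6*, *Grik4*, *Rab3b*, *Cplx1*, *Syt12*, *Epha5*, and *Plxna3* did not pass in that fit, and of the guidance genes 5 were raised and 1 lowered.

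Chaperones were lowered in 6 of 30 genes and raised in none (median -0.056), and the proteins of the endoplasmic reticulum differed between WT mice. *Hspa5*, the chaperone BiP, read 328, 288, 426, and 545 CPM in WT and 257, 280, 277, and 258 CPM in *Atxn1* 154Q/2Q libraries (-0.57, SE 0.154, edgeR adjusted p = 0.0479). WT-220 and WT-221 were high, and the change was -0.20 (edgeR adjusted p = 0.181) against WT-70 and WT-77 alone. *Sdf2l1*, a BiP cofactor, read 11.7, 8.09, 13.5, and 17.5 CPM against 5.90, 6.64, 5.82, and 6.57 CPM (-1.02, SE 0.197, adjusted p = 0.00644) and *Hsp90b1* changed by -0.31 (adjusted p = 0.0319). In the cytosol *Hspa1b*, whose reads can be shared with its near-identical copy *Hspa1a*, changed by -0.61 (edgeR adjusted p = 0.00563), *Bag3* by -0.31 (adjusted p = 0.018), and *Cryab* by -0.25 (adjusted p = 0.00609). Against WT-70 and WT-77 alone 1 of the 30 genes was lowered.

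Of 76 oxidative phosphorylation genes 69 were higher in *Atxn1* 154Q/2Q libraries (median 0.102), but 3 were DEGs, *Atp5b*, *Atp5a1*, and *Cycs* (0.21, 0.14, and 0.13), or 3.95% of the list against 5.22% of all genes. The genes summed to 11800, 10600, 9680, and 9110 CPM in WT and 11900, 11000, 10500, and 11500 CPM in *Atxn1* 154Q/2Q libraries. The groups overlapped, and the list median was -0.049 against WT-70 and WT-77 alone, so the direction depended on the WT mice. Genes of cholesterol synthesis (1 of 24 DEGs, *Ebp*), immediate early genes (0 of 20), the circadian clock (1 of 19), and the interferon response (2 of 28, *Irf7* raised and *Stat2* lowered) had shares of DEGs from 0 to 7.14%. When set against WT-70 and WT-77 alone, *Ebp*, *Irf7*, and *Stat2* did not pass (edgeR adjusted p = 0.325, 0.286, and 0.113).

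Genes for ATXN1 partners and genes repressed by CIC were examined next. None of 13 genes for ATXN1 and its partners was a DEG (median 0.012). *Cic* read 193 ± 17.4 CPM in WT and 185 ± 4.77 CPM in *Atxn1* 154Q/2Q libraries (SD, n = 4 each; edgeR adjusted p = 0.672), and *Atxn1l*, the close relative of *Atxn1*, 65.7 ± 4.62 and 68.8 ± 3.57 CPM (edgeR adjusted p = 0.581). Of 16 genes repressed by CIC in the feedback on MAPK signaling 1 was lowered and 1 raised (median -0.028), 12.5% of the list against 5.22% of all genes. *Dusp5*, a nuclear ERK phosphatase, read 122, 117, 132, and 126 CPM in WT and 59.4, 75.6, 56.7, and 69.4 CPM in *Atxn1* 154Q/2Q libraries (-0.92, SE 0.095, edgeR adjusted p = 4.89e-05), with no overlap. *Ccnd1*, the cyclin of the G1 phase, was raised (0.23, SE 0.060, edgeR adjusted p = 0.0357; 0.407 against WT-70 and WT-77 alone), and the ETS factors *Etv4* (0.26, SE 0.073, adjusted p = 0.057) and *Etv5* (-0.17, SE 0.149, adjusted p = 0.623) did not pass the test. The list median was 0.091 against WT-70 and WT-77 alone, so its sign depended on the WT mice.

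Sequences that CIC binds, TGAATGAA or TGAATGGA on either strand, were looked for in RefSeq promoters of GRCm38.p6 that run from 250 bases before to 50 after a start, matched by symbol for 13474 of the genes tested. They were found for 272 genes (2.02%), for 11 of 446 lowered DEGs (2.47%), and for 4 of 311 raised DEGs (1.29%), close to the share over all. No window of *Dusp5*, *Etv5*, *Plcb3*, or *Igfbp5* held them. Other sequences and stretches were not searched. The study used its own longer CIC motif over a longer stretch before the start, and CIC peaks. It reported the motif enriched among cerebellar DEGs of these mice and the peaks among the downregulated ones. The shares here are not comparable with those results. Of the 11 lowered genes, *Tle6* and *Kcnip1* are members of the lists, and their promoters are printed to show where the match lies, with TGAATGAA in capitals as read from the other strand. *Tle6*, a corepressor of the Groucho family, is one of 6 genes that the study followed up, and its window is chr10:81597318-81597617 on the minus strand. *Kcnip1*, a potassium channel partner, was named after its values were seen, and its window is chr11:33843637-33843936 on the minus strand, with the match next to the annotated start.
Tle6: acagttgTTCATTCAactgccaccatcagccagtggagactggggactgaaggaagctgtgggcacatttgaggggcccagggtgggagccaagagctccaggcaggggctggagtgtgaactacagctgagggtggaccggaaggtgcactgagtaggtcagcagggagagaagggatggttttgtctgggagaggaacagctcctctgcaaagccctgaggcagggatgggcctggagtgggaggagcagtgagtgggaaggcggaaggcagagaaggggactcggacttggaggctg
Kcnip1: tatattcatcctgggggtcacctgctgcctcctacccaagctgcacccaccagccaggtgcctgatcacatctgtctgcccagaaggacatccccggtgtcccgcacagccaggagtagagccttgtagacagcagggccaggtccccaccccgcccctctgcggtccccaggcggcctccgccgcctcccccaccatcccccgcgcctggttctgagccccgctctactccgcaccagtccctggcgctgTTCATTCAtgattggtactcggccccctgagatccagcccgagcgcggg
*Tle6* read 2.27, 2.33, 2.20, and 2.92 CPM in WT and 1.46, 1.87, 1.73, and 1.49 CPM in *Atxn1* 154Q/2Q libraries (-0.56, SE 0.127, edgeR adjusted p = 0.0182), and *Kcnip1* changed by -0.34 (SE 0.044, adjusted p = 0.000286).

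Of the 6 followed-up genes, 3 were lowered, among them *Tle6* and *Chn2*, and 2 were raised (*Ebf4* and *Ankdd1a*). These genes were chosen by the study on these samples, so their count is no independent evidence. *Ebf4*, a transcription factor, read 5.60, 5.54, 5.01, and 4.68 CPM in WT and 7.35, 7.51, 6.92, and 7.27 CPM in *Atxn1* 154Q/2Q libraries (0.48, SE 0.071, edgeR adjusted p = 0.000947). *Ankdd1a* read 0.202, 0.392, 0.201, and 0.438 CPM against 0.660, 0.786, 1.46, and 0.874 CPM (1.60, SE 0.313, adjusted p = 0.00727), at a low level throughout. With only WT-70 and WT-77 as controls none of the 6 was raised and 2 were lowered, and *Ebf4*, *Ankdd1a*, and *Tle6* did not pass (edgeR adjusted p = 0.0822, 0.125, and 0.21).

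Of 26 other genes of polyglutamine disease and ataxia 5 were lowered and 2 raised (median -0.058), 26.9% of the list against 5.22% of all genes. The lowered ones included *Itpr1*. *Ppp2r2b*, a phosphatase 2A subunit, was raised (0.24, SE 0.046, edgeR adjusted p = 0.00617). Of 35 growth factor genes 3 were DEGs, 8.57% against 5.22% of all genes and 8.72% of the highest expression bin. *Igfbp5* and *Fgf1* (-0.30, SE 0.055, edgeR adjusted p = 0.00445) were lowered and *Fgf5* raised (0.44, SE 0.104, adjusted p = 0.024). Of 12 genes of the extracellular matrix around neurons 25.0% were DEGs. *Ncan*, a chondroitin sulfate proteoglycan, was raised (0.31) and *Hapln4* and *Adamts4* lowered (-0.24 and -0.21). In the comparison with WT-70 and WT-77 alone *Itpr1*, *Ppp2r2b*, *Fgf1*, *Fgf5*, *Hapln4*, and *Adamts4* did not pass (edgeR adjusted p = 0.138, 0.103, 0.0805, 0.274, 0.144, and 0.178).

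Within 10 Mb of the start of *Atxn1* on chromosome 13, 16 of 182 genes tested were DEGs (8.79% against 5.22%), 7 raised and 9 lowered. The 5 with the lowest p values were *Gm5083*, *A330076C08Rik*, *Id4*, *Phactr1*, and *Nhlrc1*. *Gm5083* read 22.7, 19.8, 19.3, and 22.1 CPM in WT and 12.2, 11.4, 10.1, and 11.1 CPM in *Atxn1* 154Q/2Q libraries (-0.90, SE 0.074, edgeR adjusted p = 8.23e-06), and *A330076C08Rik* 4.93, 8.70, 5.54, and 5.84 CPM against 2.51, 3.25, 2.72, and 2.75 CPM (-1.16, SE 0.164, adjusted p = 0.000662). *Nhlrc1* did not pass against WT-70 and WT-77 alone (edgeR adjusted p = 0.09). *Gm45623*, whose start lies 10.8 Mb away and which was named after its values were seen, read 0.327, 0.266, 0.313, and 0.479 CPM in WT and 5.90, 6.70, 6.35, and 0.268 CPM in *Atxn1* 154Q/2Q libraries (edgeR adjusted p = 0.00388). Mouse 154Q-76 was at the WT level, while the 4 cerebellum libraries of mice with the expanded allele and the V591A;S602D substitutions read 6.82 to 7.79 CPM. Sequence around the engineered allele and the allele itself cannot be told apart for genes this close.

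To ask which changes were particular to the cerebellum, the change there was tested against the mean change in the brainstem, hippocampus, striatum, and cortex of the same mice, in 40 libraries. The difference passed the threshold for 483 genes (2.07% of those tested), 288 higher and 195 lower in the cerebellum, and 178 of the DEGs (16.3%) were among them, 175 with the difference in the direction of the cerebellar change. *Plcb3* changed by -0.83 in the cerebellum and by -0.04, -0.16, -0.21, and -0.14 in the brainstem, hippocampus, striatum, and cortex (difference -0.69, SE 0.066, edgeR adjusted p = 3.41e-08). *Fam163b* changed by 1.58 against -0.18, -0.55, -0.21, and -0.21 (difference 1.86, SE 0.162, adjusted p = 4.59e-09). Outside the cerebellum *Plcb3* was lower in each region too, but by less, and *Fam163b* was of the opposite sign. *Stap2* (difference -1.07), *Myo15* (-2.96), *AW011738* (-0.97), *Icmt* (-0.41), and *Gcnt1* (-1.55) were the other lowered DEGs with the lowest p values in this test under the rule above, and *Stk32c*, *Pak6*, *Kcnb2*, *Chst1*, and *Adra2c* (1.14, 1.13, 1.22, 0.63, and 1.16) the other raised ones. For *Adra2c*, an adrenergic receptor, much of the difference lay in the striatum, where it changed by -1.39. *Chst1* changed by 0.24 in the cerebellum and by -0.13, -0.65, -0.50, and -0.28 in the other regions, in the order above. *Stk32c* changed by 0.71 against -0.09, -0.41, -0.67, and -0.53. Much of the difference of these genes thus lay outside the cerebellum. The cerebellar changes of *Stk32c*, *Pak6*, *Chst1*, and *Adra2c* did not pass against WT-70 and WT-77 alone (edgeR adjusted p = 0.198, 0.199, 0.226, and 0.143), while those of the other 8 genes named from the region test did.

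*Rgs8* (edgeR adjusted p = 0.828), *Calb1* (0.866), *Homer3* (0.941), and *Grm4* (0.566) did not pass the region test, and a difference in their changes between regions was not shown. Labels were doubtful for 3 libraries of the other regions (hippocampus of 154Q-76, and cortex of WT-221 and 154Q-76), and without them the difference passed for 644 genes.

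**Figure D5:**
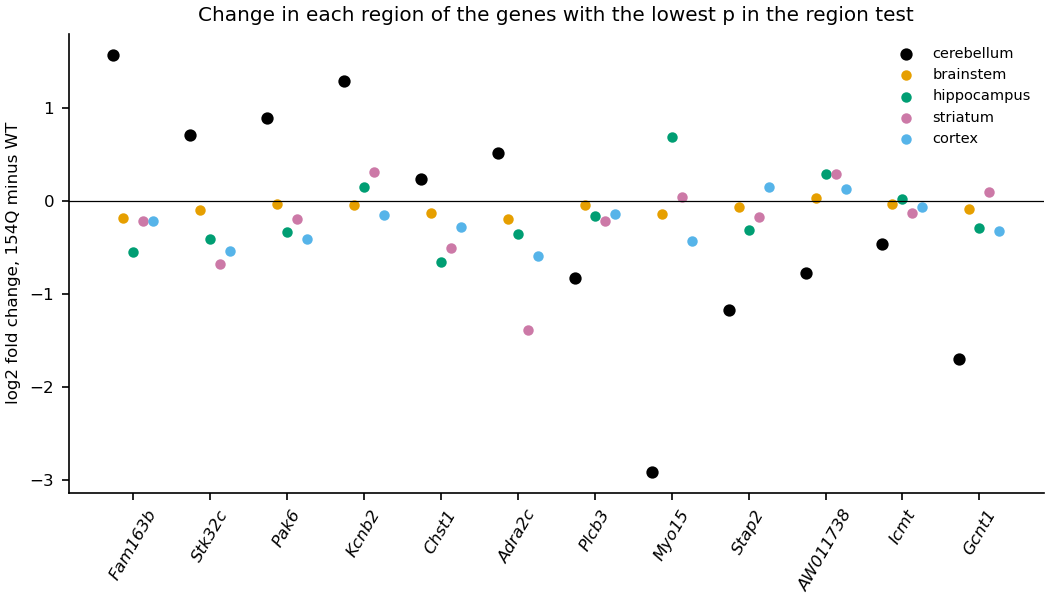
Log2 fold change (*Atxn1* 154Q/2Q minus WT) in each of 5 brain regions for 12 DEGs named by lowest p value in the test of cerebellum against the other regions, 6 higher and 6 lower, provisional gene names left out. The cerebellar value (black) lies apart from the other 4 regions in each gene.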

How the data were processed

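Polyadenylated RNA of whole cerebellum was extracted with the miRNeasy kit and sequenced in pairs. Per the labels, the submitters' processing notes name Trimmomatic 0.36, STAR 2.7.2d, and DESeq2 1.28.1, with the build GRCm38.p6 (mm10). The authors deposited raw read counts per gene and library from STAR, unstranded and per strand, and the unstranded counts were used. Pairs on more than 1 gene were ambiguous (4.57% to 4.8%) and were left out, as were 4 summary lines and 1 transgene line, which lowers genes that overlap another.

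Counts were tested with edgeR 4.0.16 in R 4.3.3 (filterByExpr by genotype, TMM, glmQLFit, glmQLFTest) over the 12 cerebellum libraries, which add those of 154Q-AXH mice to the estimate of the spread, and the contrast was 154Q minus WT. The filter removed 33358 genes. Adjusted p values are by Benjamini-Hochberg, and SE is of the log2 fold change. With 1 library per mouse, p values measure the spread between mice. The region test used 40 WT and 154Q libraries.

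The comparison, gene lists, and alternatives were chosen with earlier results of these data known. Named genes were the 12 raised and 12 lowered with the lowest p and the 5 each with the largest fold (mean of 1 CPM or more, groups apart, no Gm or Rik names), up to 6 called members of each list by fold and its first 2 members, 6 higher and 6 lower in the region test, and 5 near *Atxn1*; others are marked as picked later. Some genes that the rule names are not reported here. Promoters are from RefSeq. The steps were tested on simulated data. Alternatives were DESeq2 1.42.0, other scaling, filters, covariates, strand, and libraries left out.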

Additional observations from a re-analysis of the deposited data

Results flagged for a closer look

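In 16 of 228 groups of 4 libraries examined for the genes named here, 1 library lay far from the other 3, and chance alone gives about 1 in 20. These were *Calb2* in 154Q-75 (553.2 CPM against 620.1 to 629.9 CPM), *Ifi203* in 154Q-71 (14.19 CPM against 8.787 to 9.564 CPM), *Myo15* in 154Q-75 (0.4286 CPM against 0.7743 to 0.7921 CPM), and *Stk17b* in WT-221 (155.8 CPM against 142 to 144.3 CPM). Others were *Homer3* in WT-70 (217.7 CPM against 157.4 to 166.5 CPM), *Ccnd1* in 154Q-69 (32.6 CPM against 28.25 to 28.72 CPM), and *Grik4* in 154Q-76 (13.96 CPM against 15.2 to 15.44 CPM). Further ones were *Ncan* in WT-220 (18.94 CPM against 16.58 to 16.89 CPM), *Hapln4* in WT-77 (125.8 CPM against 135.5 to 136.7 CPM), and *Pcp2* in 154Q-69 (84.3 CPM against 63.72 to 67.06 CPM). Then came *Atxn1l* in WT-77 (58.84 CPM against 67.49 to 68.45 CPM), *Atxn1l* in 154Q-69 (74.1 CPM against 66.55 to 67.71 CPM), *Cic* in WT-77 (167.4 CPM against 199.2 to 205.6 CPM), and *Etv4* in 154Q-69 (20.6 CPM against 18.39 to 18.75 CPM). The last were *Slc6a2* in 154Q-71 (0.08066 CPM against 0.04659 to 0.05078 CPM) and *Gm45623* in 154Q-76 (0.2679 CPM against 5.903 to 6.705 CPM).

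The log2 fold change in the cerebellum minus the mean of the other 4 regions passed the region test in edgeR for 39 of the named genes. The difference was higher for *Synpr* (1.10), *Slc44a5* (0.82), *Fxyd6* (0.51), *Rprm* (1.24), *Fam163b* (1.86), *Robo1* (0.45), *Necab1* (0.78), and *Pde3a* (0.69). It was so too for *Mndal* (1.29), *Kcnb2* (1.22), *Ifi203* (1.22), *Stk32c* (1.14), *Pak6* (1.13), *Chst1* (0.63), *Adra2c* (1.16), *Phactr1* (0.45), and *Ankdd1a* (1.33). The same held for *Kcnk2* (0.74), *Cbln2* (3.58), *Cacng8* (0.55), *Rab3b* (0.55), *Ncan* (0.48), *Nrgn* (2.91), and *Gm45623* (4.10). The difference was lower for *Stap2* (-1.07), *Plcb3* (-0.69), *Ccdc63* (-1.33), *Igfbp5* (-0.74), *Myo15* (-2.96), *Cep76* (-0.51), *Fam107b* (-0.56), and *Stk17b* (-0.41). It was so too for *Kcnh3* (-0.99), *Gcnt1* (-1.55), *Car9* (-1.63), *AW011738* (-0.97), *Icmt* (-0.41), *Stat2* (-0.34), and *Plxna3* (-0.56). For *Cbln2* and *Nrgn* the cerebellar value rests on 154Q-71 and 154Q-75, and for *Gm45623* on the 3 mutant libraries other than 154Q-76.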

How the results depend on the processing

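The 1089 DEGs became 1703 with DESeq2's default settings, 619 with only the 8 WT and *Atxn1* 154Q/2Q libraries fitted, 372 against the WT mice of the lower number series alone, 959 (637 shared) with the series as a covariate, 484 without 154Q-71 and 154Q-75, and 513 at an adjusted p under 0.01. Leaving out 1 mouse at a time gave 732 to 1337. The 2-level *Ttr* term and the fit without 154Q-71 and 154Q-75 were chosen after seeing the data. The 483 region differences became 732 without the 3 doubtful libraries and with mouse as a replicate block, 40 against brainstem alone, 862 against striatum alone, and 291 against cortex alone. Leaving out 1 mouse at a time gave 185 to 493, with 318 without WT-220, 185 without WT-221, 249 without 154Q-69, 241 without 154Q-71, and 277 without 154Q-75. The cause was not tested. Mouse as a replicate block alone gave 591; the same number marks the same mouse across regions by the titles, and the libraries of a mouse correlated at -0.234 to 0.347. Within the cerebellum no paired analysis was possible because WT and mutant mice share no numbers. Of 108 named DEGs none changed sign in any alternative, and 51 passed the threshold in all of them. The alternatives reuse libraries that chose the DEGs, so the kept signs are not a separate test. Among genes that were no DEGs, the log2 fold change of *Atxn1* was -0.03 without WT-70, -0.03 without WT-77, and -0.04 without 154Q-69 (range -0.04 to 0.12 with 1 mouse left out), and with the number series as a covariate or the lower-series WT mice alone it was 0.01 for *Cic* and 0.09 for *Etv5*. Genes of low count are limited by depth, since only large folds passed there.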
